A study of Mus musculus with 24 samples.

Results

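The circular RNAs of cardiac fibroblasts with the shortest genomic spans, the lowest 25%, are described here. Span was taken as the distance in the genome between the outer bases of a back-splice junction, both included, and a circular RNA belonged to the set when its span was at or below the 25th percentile of the whole table, 2228 bp. This gave 430 of 1717 circular RNAs, from 404 host genes. No expression value entered that choice. The libraries came from cardiac fibroblasts of male C57BL/6J mice operated on at 8 weeks of age, isolated from the heart on a Langendorff apparatus. In 1 arm the aortic arch was narrowed by surgery (transverse aortic constriction, TAC), which loads the left ventricle with pressure, and in the other a sham operation was done; hearts were taken after 1, 4 or 8 weeks. Sham libraries numbered 4 at 1 week, 5 at 4 weeks and 4 at 8 weeks, and TAC libraries numbered 4, 4 and 3. All animals carried the same strain background with no further allele or agent given in the labels, and no sort on a cell surface marker is given in the sources used here.

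A circular RNA forms when the splicing machinery joins the 5′ splice site at the end of an exon to a 3′ splice site further upstream, which leaves a closed ring without cap or tail. The ring is seen in sequencing only through reads that cross this back-splice junction. Most known circular RNAs consist of internal coding exons, and the exon after the first one is often part of them. Introns that lie within the ring are usually removed, so the genomic span says how far apart the joined splice sites lie and not how long the ring is.

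Between 3595 and 9146 junction reads stood behind each library, and 1 read equalled 0.642 to 1.57 normalized reads. Of the genes listed as fibroblast markers, 4 of 22 (Dcn, Abca9, Lamc1 and Nav1) had a circular RNA in the table, with 6 in all, and Pdgfra, Tcf21 and Col1a1 had none. Circular RNAs also came from 12 of 32 cardiomyocyte genes (18 circular RNAs, Ttn and Ryr2 among the hosts), 10 of 32 macrophage and other leukocyte genes (28, with Adgre1 and Mrc1) and 5 of 17 endothelial genes (8, with Pecam1 and Flt1). None came from the 5 mesothelial or the 5 Schwann cell genes, and 1 came from a mural gene, Abcc9. A marker gene without a circular RNA can still be expressed as a linear transcript, which this table does not hold. In such bulk samples fewer cells of a type and less RNA per cell cannot be told apart. Sham replicate 1 at 1 week held the highest levels of several short circles within its group, among them those of Adgre1, Bbs9 and Mmp15, and calls are therefore also given without single libraries. Among the short circles, the count of calls without this library was 8 at 1 week, 3 at 4 weeks and 0 at 8 weeks.

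The junctions that carry the results are shown as the last 15 bases before the join in lower case and the first 15 bases after it in capitals, 5′ to 3′ along the transcript, from the GENCODE M21 transcripts of mm10. The first set holds the most abundant short circle, that of Nfix, and 7 that met the test below; all 8 join annotated exons. Setbp1, which met it too, is described with its values.
Nfix exon 2, chr8:84771784-84772315, minus strand: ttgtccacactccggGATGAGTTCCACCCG
Med13l exon 2, chr5:118593333-118593570, plus strand: atcatgaactgcaggGCTGAACTCACAGGA
Tns3 exons 18 to 20, chr11:8478225-8479665, minus strand: tgcacaaaggtcgagGTGATGACCCCATTG
Tns3 exons 14 to 16, chr11:8518199-8519570, minus strand: gtgcggatggagaagGTGAAATGCTATCAC
Ezh2 exons 2 to 3, chr6:47576536-47577667, minus strand: cgcgggactagggagAATAATCATGGGCCA
Aff3 exons 2 to 4, chr1:38534906-38536946, minus strand: cccaagcaggcagagTGTCTATGAACCGGA
Arhgef40 exons 11 to 13, chr14:51994880-51996407, plus strand: cgcttcttccagcagGCTAGAGGGCCCAGG
Pakap exon 7, chr4:57709451-57710143, plus strand: cagacccggccccagCTATATACGCCATGG

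The second set holds junctions of under 100 bp whose ends match no annotated exon boundary, shown because both Gm28437 junctions met the test and the others had low values in TAC at 1 or 4 weeks.
Gm28437 63 bp, chr1:24613551-24613613, minus strand: tacttctagcatcagGAATTTCACCACTTA
Gm28437 62 bp, chr1:24613561-24613622, minus strand: aatacttcagtacttCTCCAACAGGAATTT
Gm11407 56 bp, chr4:80002931-80002986, plus strand: tgcaggatttgtcatCTCATAAACCCAATC
Malat1 57 bp, chr19:5800854-5800910, minus strand: ttgcgggtgttgtagGCTTCTGTGTAAAGA
Malat1 45 bp, chr19:5801899-5801943, minus strand: aagacatacaggaagAAGATTAGAAAATGG
Rn7sk 59 bp, chr9:78175353-78175411, minus strand: gtcaagcttccaagaCTCCAAACAAGCTCT

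The short circles held few exons. Of the 430, 405 had both ends at exon boundaries of 1 annotated transcript, and of these 102 consisted of 1 exon, 219 of 2 exons, 60 of 3 exons and 24 of 4 or more. The highest number was 8, in a circle of Plcg1, a phospholipase that signals below growth factor receptors. Single-exon circles numbered 105 among all circles, so all but 3 of the single-exon circles were short circles. Among the longest 25%, with spans of 13995 bp or more, no circle had 1 exon and 284 had 4 or more. The ring itself differed far less than the span: the median spliced length was 322 bases for the short circles, 420 for all circles and 532 for the longest 25%, while the median spans were 965.5, 6241 and 23970.5 bp. Exons made up a median of 38.7% of the span in the short circles and 7.31% in all circles. Of the short circles, 198 were also among the shortest 25% by spliced length (302 bases or less), so the measures chose partly different circles. Lengths follow in part from how the set was drawn and are given as a description.

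**Figure D1:**
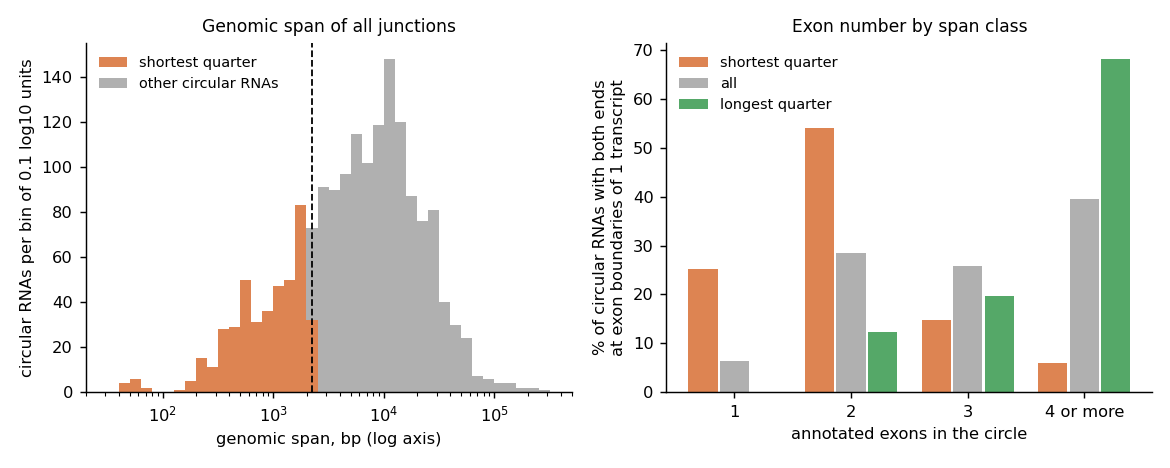
Left, the number of circular RNAs by genomic span (log axis, bins of 0.1 log10 units), with the 430 short circles in orange and the dashed line at 2228 bp. Right, the percentage of circles with 1, 2, 3 and 4 or more exons among those with both ends at exon boundaries of 1 transcript. The 102 single-exon circles and the 219 of 2 exons make up most of the short circles, and the longest 25% hold no single-exon circle and 284 of 4 or more exons.

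Introns next to the short circles were shorter than those of other circles, except around single exons. All values in this paragraph cover circles with both ends at exon boundaries of 1 transcript. These were 405 of the 430 short circles and 1657 of all 1717. The intron upstream of the ring had a median of 6480.5 bp in the short circles, 11026 bp in all circles and 15261 bp in the longest 25%, and the intron downstream had medians of 4997, 9861 and 17564 bp. Single-exon short circles lay between long introns, with medians of 22671 bp upstream and 20544.5 bp downstream. Short circles of 2 exons had medians of 4755 and 4035 bp, and those of 3 or more exons had 2404 and 2262.5 bp. Exon 2 was the first exon of 122 short circles (30.1%), against 36.6% of all circles, and of 60 of the 102 single-exon ones. The start codon lay within 61 short circles (15.1%), against 15.8% of all circles. Coding sequence alone made up 333, coding and untranslated sequence 66, untranslated sequence alone 3 and noncoding transcripts 3. The ring length was a multiple of 3 in 36.3% of the short circles and 35.5% of all. Only 1 of these 405 short circles began at exon 1 of its transcript, and none of them included a last exon.

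Of the 430 short circles, 417 came from protein-coding hosts and 13 from other genes, among them Malat1, an abundant nuclear long noncoding RNA, Pvt1, a long noncoding RNA next to Myc, Rn7sk, the small nuclear RNA that holds the elongation factor P-TEFb inactive, and several pseudogenes. Hosts with at least 2 short circles numbered 24 and gave 50 of them; Malat1 and Adgre1 had 3 each. In 7 hosts a pair of short circles shared an end and differed in the other. In the pairs of Kmt2a and Klhl8 the acceptor sides lay 3 bp apart, and the longer ring of each began with CAG, so that a second AG stood just before the start of the shorter one.
Kmt2a, chr9:44828784-44829271, minus strand: gatgacagtgctaatCAGTGGGATGTTACC
Klhl8, chr5:103885907-103886290, minus strand: gacgtcaccctgaagCAGACTGTATCGTGA
The shorter form took 12.4% of the pair's mean level for Kmt2a, a histone methyltransferase (1.23 against 8.65 normalized reads), and 23.2% for Klhl8 (1.14 against 3.78). In both pairs the longer form had both ends at annotated boundaries and the shorter form had 1. The pair of Ezh2 shared the acceptor and differed by 27 bp at the donor, at mean levels of 19.5 and 5.06.

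Near-identical sequence elsewhere limits the host of some members. Of 423 short circles whose exonic sequence could be searched among the transcripts, 21 matched a gene at another place over at least 90% of their length at 90% identity or more, 6 of them at 100%. The stretch enclosed by each Gm28437 junction was identical to mt-Co3, a mitochondrially encoded subunit of cytochrome c oxidase. That of the Gm11407 junction was identical to mt-Nd5, a mitochondrially encoded subunit of complex I. The sequence across the join was not searched. The Gm9762 circle was identical to Ube2d2a, a ubiquitin-conjugating enzyme, and that of Camsap1, a microtubule minus-end protein, matched Gm19026 at 96.7%. Pakap exon 7 also belongs to Palm2, an overlapping gene. The host of these circles is uncertain.

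At the lower end, 12 junctions spanned 41 to 72 bp, and the next one spanned 151 bp. None of the 12 had both ends at exon boundaries, 1 had 1 end there and 11 had none. The shortest were those of Sparc, a matricellular protein gene, at 41 bp, and of Malat1, Ptms and Actb at 45 bp each. All 15 junctions of the table without any end at a boundary were short circles, and 13 of them lay inside 1 annotated exon. There, 10 had AG before and GT after the joined stretch. The other 3 (Gm28437 62 bp, Gm11407 and Rn7sk) had AC before and CT after, which reads as the same signals on the opposite strand. They were also the only junctions of the table with a second junction type code. The meaning of the codes is not stated, so the code is not separate evidence on these signals. The bases at the ends were repeated over 1 to 8 positions, at least 3 in 8 of the 13. The longest repeat was in Malat1, shown with the repeat in capitals and 5 bases on either side: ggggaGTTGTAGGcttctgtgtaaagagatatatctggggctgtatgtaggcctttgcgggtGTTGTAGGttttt. At the upper end, the last circles inside the threshold were those of AU040320 (2219 bp), Ash1l (2223 bp) and Cd164 (2228 bp), and the first outside were those of Cnot4 (2246 bp), Frs2 (2256 bp) and Dock1 (2258 bp). Mean levels were 4.67, 2.68 and 1.08 normalized reads inside and 4.22, 1.59 and 6.98 outside.

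By median level the short circles did not stand out. Their median was 1.89 normalized reads per library, against 1.80 for all circles and 1.75 for the longest 25%. Reads were found in each of the 24 libraries for 86 short circles (20%), against 16.1% of all circles. Among the 405 with both ends in 1 transcript, those that began at exon 2 had a median of 2.56, and 31.1% were present in every library. For those beginning at exon 3 or later the values were 1.75 and 16%. The rank correlation of span with level across the 405 short circles was 0.0206, and -0.0306 across all circles; these points come from the same libraries and are not independent. The short circles, 25% of the table, held 5 of its 10, 18 of its 50 and 28 of its 100 most abundant circles. Together they gave 29.4% of the junction reads, with the 12 junctions under 100 bp giving 0.413%.

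The share of a library's junction reads that came from short circles overlapped between sham and TAC at each time. It was 30.3% ± 5.4 (SD, n = 4) in sham and 29.1% ± 2.4 (n = 4) in TAC at 1 week, 31.1% ± 2.5 (n = 5) and 28.6% ± 1.6 (n = 4) at 4 weeks, and 28.7% ± 2.6 (n = 4) and 28.8% ± 1.8 (n = 3) at 8 weeks. The values ran from 25.1% to 37.7%, both in sham at 1 week, and no test was made of this summed value. For the shortest 25% by spliced length the groups did not overlap at 1 week, at 24.4% to 34.3% in sham and 22.1% to 23.98% in TAC, and overlapped at 4 and 8 weeks. Without the circle of Nfix the mean over all libraries fell from 29.5% to 26.4%.

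**Figure D2:**
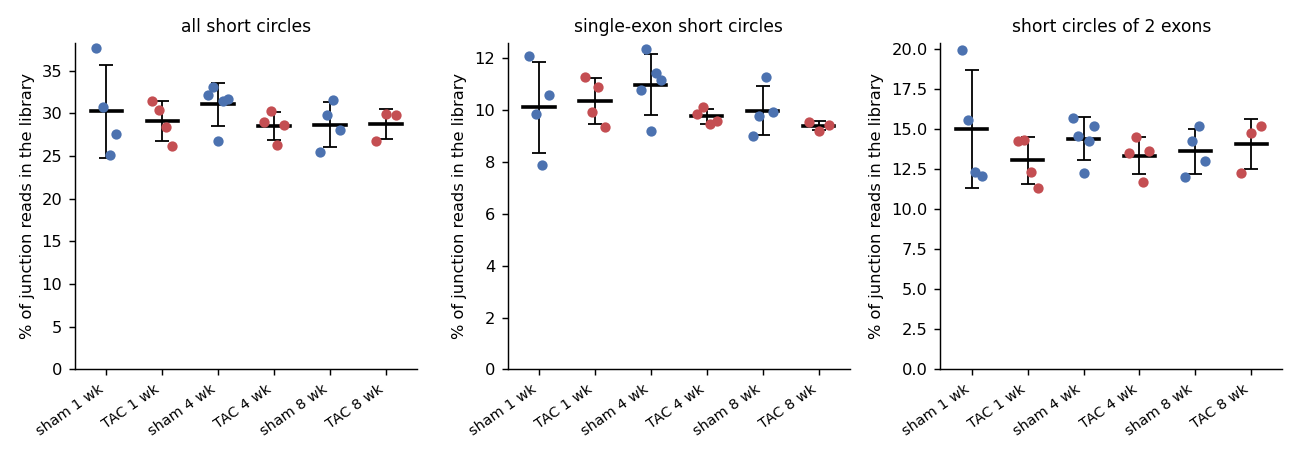
Percentage of each library's junction reads that came from all 430 short circles (left), the 102 of 1 exon (middle) and the 219 of 2 exons (right). Points are libraries, lines the group mean and bars the SD. Sham and TAC overlap at each time in the left panel, and the highest and lowest values, 37.7% and 25.1%, are both sham libraries at 1 week.

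The most abundant short circle was exon 2 of Nfix, from a transcription factor of the nuclear factor I family, which was also first in the whole table with a mean of 179 normalized reads. In sham it measured 299, 196, 120 and 169 normalized reads at 1 week, and in TAC 180, 144, 142 and 95.3. Those groups overlapped, and the log2 fold change of -0.44 ± 0.15 (SE) had an adjusted p of 0.133 in limma. At 4 weeks its mean was 206 ± 37.4 (SD, n = 5) in sham and 179 ± 30.9 (n = 4) in TAC. At 8 weeks it was 180 ± 38.6 (n = 4) and 164 ± 32.0 (n = 3). Averaged over the 3 times the log2 fold change was -0.25 ± 0.09 (SE), at an adjusted p of 0.172 in limma. That average was called in 1 of 24 fits that left out a library (without sham replicate 3 at 1 week, 0.0186). Of 8 other settings it was called in 1, limma-voom (0.0301).

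After Nfix and Med13l (mean 62.2, described with the average below) came Mmp15 exons 2 to 3, from a membrane-anchored matrix metalloproteinase (39.2), and Adgre1 exons 11 to 12, from the gene of the macrophage antigen F4/80 (33.4). Then followed Rad52, a recombination protein (29.8), Bbs9, a subunit of the ciliary BBSome (24.2), Cdyl, a chromodomain corepressor (22.7), Ezh2, the catalytic subunit of the Polycomb complex PRC2 (19.5), Camsap1 (19.3) and Hipk3, a protein kinase known as a circular RNA host (18.2). The Bbs9 circle measured 45.2, 24.9, 21.04 and 21.7 in sham and 12.3, 13.4, 12.98 and 15.6 in TAC at 1 week. All 4 TAC libraries lay below the sham libraries, at an adjusted p of 0.147. The Mmp15 circle measured 99.2, 58.6, 19.5 and 25.9 in sham and 32.3, 22.05, 13.98 and 31.1 in TAC at 1 week, so the groups overlapped (log2 fold change -0.80 ± 0.29, adjusted p 0.165). The Adgre1 circle measured 48.6, 69.1, 19.1, 51.9 and 40.5 in sham and 31.3, 35.9, 10.2 and 24.4 in TAC at 4 weeks, with a log2 fold change of -0.86 ± 0.30 and an adjusted p of 0.281. Of these 10 circles, Ezh2 met the threshold at 1 week and Med13l on average over the times. The other 8 met it in no comparison of the main fit.

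At 1 week after surgery 8 short circles differed between TAC and sham at an adjusted p of 0.05 in limma, with p-values adjusted over all 1717 circles. That is 1.86% of the 430, against a background of 1.46% over all circles. Higher in TAC were 6 (background 0.757%), from Tns3 (2 circles), Ezh2, Arhgef40, Setbp1 and Pakap, and lower were 2 (background 0.699%), both from Gm28437. The median log2 fold change was -0.02 in the short circles and 0.04 over all circles, and 57 short circles (13.3%, background 11.7%) had an unadjusted p under 0.05, 27 higher in TAC (background 6.17%) and 30 lower (5.53%). Sham and TAC did not overlap for 13 circles higher in TAC (3.02%, background 2.21%) and 15 lower (3.49%, background 3.03%). Among the shortest 25% by spliced length instead of span, 9 were called, 2 higher and 7 lower, with 4 of the 8 among them. With TMM scaling 6 were higher and 1 lower. The count of 8 became 2 when only the 1-week libraries were fitted, 5 with a pseudocount of 0.1, 2 without sham replicate 2, and 3, 1, 3 and 3 without TAC replicates 1, 2, 3 and 4. All fold changes here were taken after adding 0.5 to the normalized reads, on the log2 scale, which understates changes of scarce circles.

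Both circles of Tns3, which encodes tensin 3, a protein that links integrin adhesions to actin, rose at 1 week. Exons 18 to 20 measured 3.77, 3.74, 0 and 4.14 normalized reads in sham and 19.99, 12.5, 7.99 and 17.5 in TAC. Each TAC library lay above each sham library. The log2 fold change was 2.48 ± 0.55 (SE), at an adjusted p of 0.0068 in limma. The call held in 23 of 24 fits that left out a library. Those without a 4-week or 8-week library keep the 1-week fold change and can change only its p-value. Without sham replicate 3, the library at 0, the value was 1.70 and the adjusted p 0.096. At 4 weeks the means were 4.54 ± 1.04 (SD, n = 5) in sham and 9.42 ± 1.71 (n = 4) in TAC, also without overlap but at an adjusted p of 0.667, and at 8 weeks 6.19 ± 1.84 (n = 4) and 6.27 ± 1.29 (n = 3).

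Exons 14 to 16 of Tns3 measured 20.1, 4.99, 4.51 and 6.20 in sham and 30.8, 25.9, 21.96 and 15.6 in TAC. Sham replicate 1 lay within the TAC range and the other sham libraries below it. The log2 fold change was 1.57 ± 0.43, at an adjusted p of 0.0294. The call was lost without any of sham replicates 2, 3 and 4 or TAC replicates 1, 2 and 3, at adjusted p-values up to 0.14, with a pseudocount of 0.1, and when only the 1-week libraries were fitted (0.132). At 4 and 8 weeks sham and TAC overlapped for this circle, with log2 fold changes of -0.07 and 0.17.

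The circle of Ezh2, the histone H3 lysine 27 methyltransferase, joins the start of exon 2 to the end of exon 3 and holds the start codon. It measured 7.54, 12.5, 19.5 and 10.3 in sham and 23.1, 43.1, 34.9 and 52.5 in TAC at 1 week. The groups did not overlap, with a log2 fold change of 1.60 ± 0.39 and an adjusted p of 0.0113. Leaving out TAC replicate 2 or 4 ended the call, at adjusted p-values up to 0.0629. At 4 weeks the means were 12.9 ± 8.01 (SD, n = 5) in sham and 19.6 ± 3.99 (n = 4) in TAC, and at 8 weeks 19.2 ± 9.41 (n = 4) and 14.7 ± 7.22 (n = 3). The second Ezh2 circle, 27 bp shorter, had a log2 fold change of 1.35 at 1 week, at an adjusted p of 0.309.

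The circle of Arhgef40, a guanine nucleotide exchange factor, had 0 reads in the 4 sham libraries at 1 week and 4.61, 4.79, 2.00 and 2.92 normalized reads in TAC, 13 reads in all. Against a floor of 3 reads over the sham group it was at least 3.79-fold higher, with an adjusted p of 0.0241. The floor covers counting error only. It was no longer called on leaving out sham replicate 2 or TAC replicate 1, 2 or 4, at up to 0.0827, or on fitting the 1-week libraries alone (0.132). At 4 weeks the same circle measured 2.96 ± 1.20 (SD, n = 5) in sham and 1.4 ± 0.84 (n = 4) in TAC.

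Exon 2 of Setbp1, a SET-binding chromatin protein (chr18:79086551-79087180), measured 7.54, 8.73, 1.50 and 12.4 in sham and 21.5, 16.3, 15.97 and 19.5 in TAC at 1 week. The log2 fold change was 1.50 ± 0.43 at an adjusted p of 0.042, without overlap of the groups. The call was lost without sham replicates 2 or 3 or any of the 4 TAC replicates, and was weakest without sham replicate 3 (0.92, adjusted p 0.351). It was also lost with a pseudocount of 0.1, with limma-voom and on fitting the 1-week libraries alone, at up to 0.199. Exon 7 of Pakap, a fusion locus of a paralemmin and an A-kinase anchoring protein, measured 2.51, 0, 3.01 and 0 in sham and 4.61, 8.63, 4.99 and 6.81 in TAC. Its log2 fold change was 2.37 ± 0.69 at an adjusted p of 0.0439. Fits without a 4-week or 8-week library keep that fold change. This call held in 16 of 24 fits that left out a library. It was lost without sham replicates 2 or 4 or any TAC replicate at 1 week, without sham replicate 5 or TAC replicate 1 at 4 weeks, at up to 0.232, with a pseudocount of 1 or limma-voom, and on fitting the 1-week libraries alone (0.184).

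Both Gm28437 junctions, which overlap each other in the genome, fell at 1 week. The 63 bp junction measured 0, 7.48, 27.0 and 8.27 in sham and 0, 0, 0.998 and 1.95 in TAC, with overlap at 0 (log2 fold change -2.51 ± 0.72, adjusted p 0.042). The 62 bp junction measured 1.26, 3.74, 12.02 and 2.07 in sham and had 0 reads in TAC, at least 5.70-fold lower against a floor of 3 reads over the group (adjusted p 0.0241). The Gm11407 junction, log2 fold change -2.54, had an adjusted p of 0.0822. The call for the 63 bp junction was lost without sham replicates 2, 3 or 4 or TAC replicates 1, 2 or 3, with a log2 fold change of -1.74 without sham replicate 3 (adjusted p 0.33), and with TMM scaling, a pseudocount of 0.1, limma-voom or the 1-week libraries alone, at up to 0.193. That for the 62 bp junction was lost without sham replicates 2 or 3 or TAC replicates 2, 3 or 4, at up to 0.12, and on fitting the 1-week libraries alone (0.132). Both junctions enclose sequence identical to mt-Co3. Circular RNAs of cardiomyocyte genes were also lower in TAC. The 18 of the list summed to 54.8 to 162 normalized reads in sham and 36.4 to 50.9 in TAC at 1 week. Of the 32 genes, 20 had no circle. The part of cardiomyocyte RNA in the fall of the Gm28437 junctions was not tested.

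**Figure D3:**
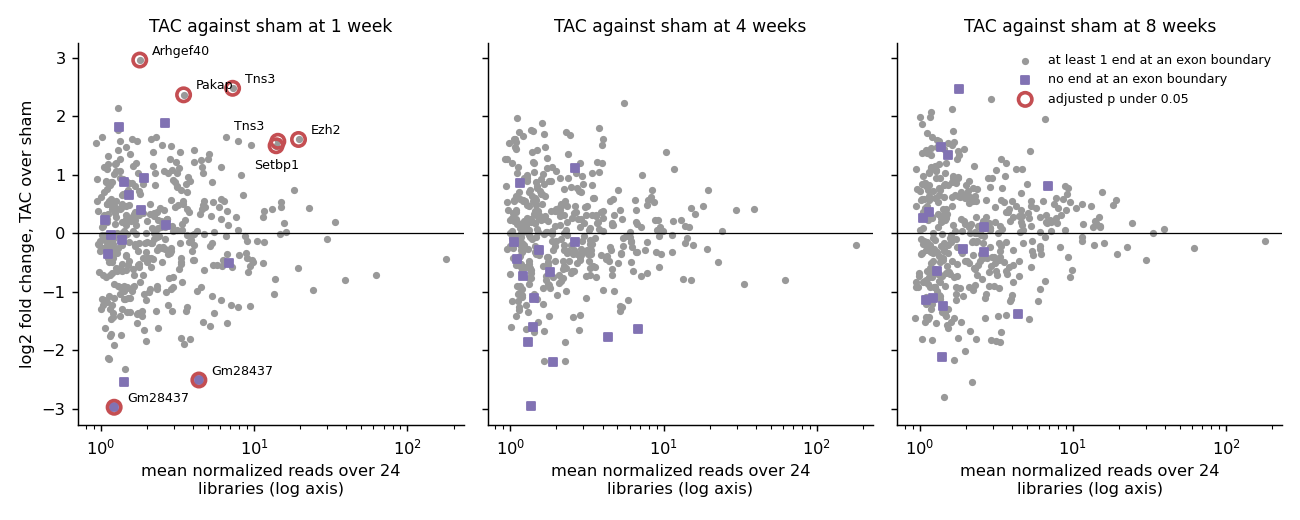
Log2 fold change of TAC over sham for the 430 short circles at 1, 4 and 8 weeks against the mean level over 24 libraries (log axis). Squares have no end at an exon boundary and rings mark an adjusted p under 0.05. The 8 rings are all in the 1-week panel. At 4 weeks 13 of the 15 squares lie below 0, against 748 of all 1717 circles.

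At 4 weeks no short circle met the threshold in limma, against 2 of 1717 over the table (0.116%), and 45 (10.5%) had an unadjusted p under 0.05 (background 7.98%). Of those, 24 were lower in TAC (5.58%, background 2.85%) and 21 higher (4.88%, background 5.13%). Sham and TAC did not overlap for 8 circles higher in TAC (1.86%, background 2.33%) and 8 lower (1.86%, background 1.22%). The median log2 fold change was 0.00 in the short circles and 0.12 over all circles. Each TAC library at 4 weeks held more junction reads (6846 to 9146) than each sham library (3618 to 6524). The part of depth in the 4-week values was not tested. The count of 0 became 2 with TMM scaling, with a pseudocount of 1 and with limma-voom on reads, and 5 when only the 4-week libraries were fitted. It was 3 without sham replicate 1 or 3 at 1 week or sham replicate 3 at 4 weeks, 2 without TAC replicate 1 at 1 week, and 1 without sham replicate 5 at 4 weeks or TAC replicate 1 at 8 weeks.

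The 3 circles with the smallest p at 4 weeks were the 45 bp junction of Malat1, exon 2 of Efnb2 and exon 2 of Med13l. The Malat1 junction measured 4.67, 6.28, 0.868, 3.05 and 4.61 in sham and had 0 reads in the 4 TAC libraries, at least 7.05-fold lower against a floor of 3 reads over the group (adjusted p 0.0509). Efnb2 encodes ephrin-B2, a membrane ligand of Eph receptors. Its circle measured 0.934, 0, 3.47, 1.02 and 2.76 in sham and 8.45, 4.40, 7.99 and 10.3 in TAC, without overlap (log2 fold change 2.23 ± 0.59, adjusted p 0.0672). At 1 week the same circle had a mean of 6.74 ± 3.93 (SD, n = 4) in sham and 4.14 ± 5.75 (n = 4) in TAC.

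At 8 weeks no short circle and no circle of the table met the threshold (0 of 1717, 0%), and 26 short circles (6.05%, background 6.06%) had an unadjusted p under 0.05, 11 higher in TAC (2.56%, background 2.62%) and 15 lower (3.49%, background 3.44%). The smallest adjusted p was 0.459, shared by the circles of Trim33 and Aff3. Trim33, a ubiquitin ligase that acts on SMAD4, gave 4.26, 2.20, 3.85 and 2.12 in sham and 0 reads in the 3 TAC libraries, at least 3.03-fold lower against the floor. Lrp6, a Wnt coreceptor, gave 7.45, 3.30, 2.89 and 2.12 in sham and 0, 0 and 0.857 in TAC, at an adjusted p of 0.625. Neither pair of groups overlapped, as was the case for 31 short circles at this time, 15 higher in TAC (3.49%, background 3.09%) and 16 lower (3.72%, background 3.03%).

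Averaged over the 3 times, 4 short circles met the threshold (0.93%, background 0.641%), with Aff3 and Tns3 exons 18 to 20 higher in TAC (background 0.349%) and Med13l and the 63 bp Gm28437 junction lower (background 0.291%). An unadjusted p under 0.05 was found for 50 (11.6%, background 9.9%), 21 higher (4.88%, background 5.3%) and 29 lower (6.74%, background 4.6%). With limma-voom 6 were called, 1 higher and 5 lower. The count was 1 with a pseudocount of 0.1 and 1 without TAC replicate 1 at 8 weeks.

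Exon 2 of Med13l, which encodes a kinase-module subunit of Mediator, was the second most abundant circle of the table. It measured 103, 72.3, 45.1 and 87.9 in sham and 52.3, 43.1, 46.9 and 37.9 in TAC at 1 week. At 4 weeks it measured 90.6, 83.3, 60.7, 97.7 and 94.9 in sham and 59.2, 40.3, 40.7 and 56.5 in TAC, so that every TAC library was below every sham library. At 8 weeks the values were 43.6, 51.7, 66.4 and 71.1 in sham and 39.5, 43.9 and 64.3 in TAC. The average log2 fold change was -0.58 ± 0.14 at an adjusted p of 0.00822, and 10 of 11 TAC libraries lay below the sham mean of their time. The call held in 23 of 24 fits that left out a library (without TAC replicate 1 at 8 weeks 0.0612).

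The circle of Aff3, exons 2 to 4 of a nuclear protein of the AF4 family tied to transcription elongation, was higher in TAC. It measured 2.51, 7.48, 4.51 and 2.07 in sham and 18.45, 11.5, 11.98 and 9.73 in TAC at 1 week. At 4 weeks it measured 1.87, 7.86, 7.81, 3.05 and 3.69 in sham and 8.45, 6.60, 5.81 and 5.78 in TAC, and at 8 weeks 3.19, 2.20, 0 and 4.24 against 14.4, 10.2 and 3.43. The groups were apart at 1 week and overlapped later, and 11 of 11 TAC libraries lay above the sham mean of their time. The average log2 fold change was 1.39 ± 0.34 at an adjusted p of 0.00984. Leaving out sham replicate 3 or TAC replicate 1 at 8 weeks ended the call, at up to 0.093, as did a pseudocount of 0.1 (0.0781).

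Tns3 exons 18 to 20 had an average log2 fold change of 1.17 ± 0.32 at an adjusted p of 0.0485, with 10 of 11 TAC libraries above the sham mean. This call held in only 6 of 24 fits that left out a library, with adjusted p-values up to 0.142, and was lost with a pseudocount of 0.1, limma-voom or the replicate block, at up to 0.115. The 63 bp Gm28437 junction had -1.89 ± 0.42 at 0.00388, with 11 of 11 TAC libraries below the sham mean. It held in 24 of 24 such fits, and was lost with a pseudocount of 0.1 (0.105).

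**Figure D4:**
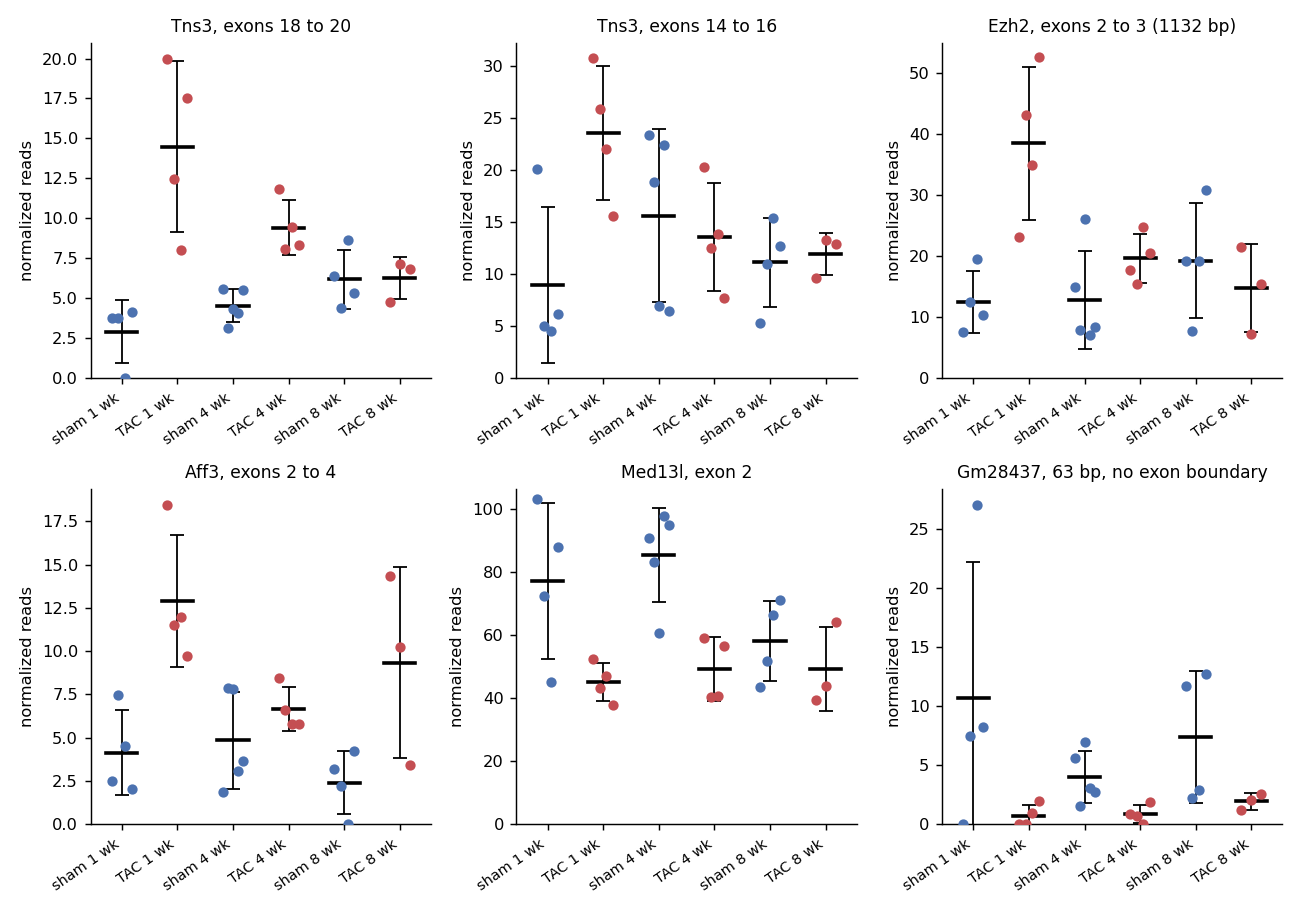
Normalized reads in each library for 6 short circles named in the text, with group means (lines) and SD (bars). Tns3 exons 18 to 20 and Ezh2 separate sham from TAC at 1 week, Aff3 is above the sham mean of its time in 11 of 11 TAC libraries, and Med13l and Gm28437 lie below it in 10 and 11 of 11.

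The effect of TAC differed between times for no short circle at the threshold (limma F test, smallest adjusted p 0.16; 0 of 1717 over the table, 0%), and 41 short circles (9.53%, background 9.14%) had an unadjusted p under 0.05. The count was 1 without sham replicate 1 or TAC replicate 4 at 1 week. A call at 1 week and none later is therefore no shown difference between times.

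At 4 weeks the junctions under 100 bp, summed, were lower in TAC. The 12 summed to 25.5 to 45.6 normalized reads in sham and 4.36 to 16.1 in TAC at that time. The ranges did not overlap. At 1 week they summed to 19.95 to 64.6 in sham and 9.58 to 31.1 in TAC, and at 8 weeks to 16.4 to 35 and 24 to 25.5, with overlap both times. Of the 15 junctions with no end at a boundary, 13 had a negative log2 fold change at 4 weeks, 7 at 1 week and 8 at 8 weeks, with medians of -0.74, 0.14 and -0.26. Over all 1717 circles, 748 were negative at 4 weeks, 826 at 1 week and 834 at 8 weeks. The 15 are not independent, as 3 lie in Malat1 and both of Gm28437 overlap each other. The 405 circles with both ends at boundaries had medians of -0.01, 0.03 and 0.04 at 1, 4 and 8 weeks. None of the 15 met the threshold at 4 or 8 weeks. Without them and the 10 with 1 end, 6 short circles met it at 1 week and 3 on average. Among the longer ones of the 15, Gm9762 (374 bp) had means of 1.36 ± 1.19 (SD, n = 5) in sham and 4.53 ± 3.56 (n = 4) in TAC at 4 weeks, and the Col4a2 junction (443 bp), from a basement membrane collagen gene, 2.49 ± 1.97 and 2.57 ± 2.73. The Sparc junction measured 0, 0, 0 and 1.06 in sham and 3.59, 2.04 and 4.29 in TAC at 8 weeks, without overlap (adjusted p 0.625).

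In 3 junctions (2 of Gm28437, 1 of Gm11407) the enclosed stretch is identical to a mitochondrial gene. They summed to 2.51, 12.5, 45.1 and 13.4 in sham and 0, 0, 0.998 and 1.95 in TAC at 1 week. At 4 weeks they gave 8.41, 6.28, 8.68, 3.05 and 3.69 against 0.845, 0.734, 0 and 3.21, and at 8 weeks 15.96, 5.50, 4.81 and 20.2 against 2.39, 5.11 and 2.57. The TAC mean was below the sham mean each time, and the ranges overlapped at 4 and 8 weeks. Beside them, the cardiomyocyte circles summed to 55.3 to 154 in sham and 26.9 to 57.8 in TAC at 4 weeks, and to 76.0 to 145 and 60.0 to 74.6 at 8 weeks. The 3 Malat1 junctions behaved otherwise. They gave 10.3, 11.0, 2.60, 9.16 and 11.98 in sham and 0.845, 0.734, 0.726 and 2.57 in TAC at 4 weeks, but 4.26, 2.20, 3.85 and 6.36 in sham and 9.58, 8.17 and 7.71 in TAC at 8 weeks. The junction of Rn7sk gave 9.34, 11.0, 10.4, 3.05 and 17.5 in sham and 1.69, 2.93, 2.18 and 3.85 in TAC at 4 weeks (adjusted p 0.281). At 8 weeks it gave 3.19, 6.60, 2.89 and 4.24 against 8.38, 8.17 and 6.00. These sums were looked at after their members' values were seen and have no test.

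**Figure D5:**
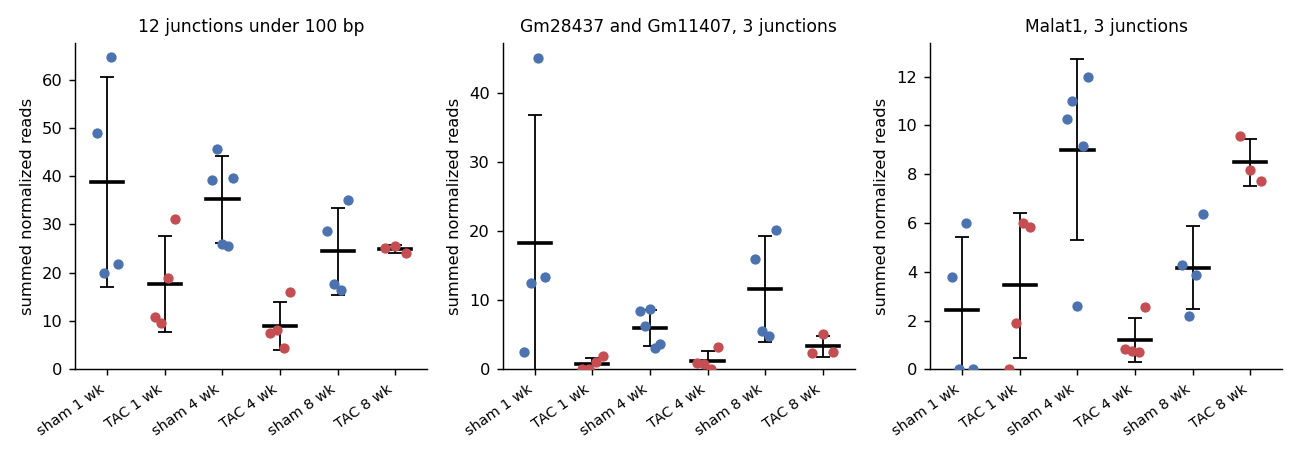
Summed normalized reads per library of the 12 junctions under 100 bp (left), the 3 enclosing sequence identical to mitochondrial genes (middle) and the 3 of Malat1 (right). Lines are group means and bars the SD. At 4 weeks the left panel has TAC at 4.36 to 16.1 and sham at 25.5 to 45.6. The Malat1 sums are lower in TAC at 4 weeks and higher at 8 weeks.

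By host function, the 20 short circles from chromatin and transcription regulators included Ezh2 and Setbp1, which rose at 1 week, and Med13l, which fell on average; 12 had a positive value at 1 week. Among the 5 from myofibroblast and adhesion genes, both Tns3 circles rose at 1 week, while Flna, which crosslinks actin, had -0.02, and all 5 had a positive average. Of the 7 from extracellular matrix genes, led by Mmp15, Ltbp1 and Lamc1, none met the threshold in any comparison, and 4 had a positive value at 1 week. The 7 from TGF-beta, BMP and SMAD signalling met it in no comparison either. They were led by Smad1, a BMP-responsive transcription factor (log2 fold change 0.27 at 1 week), Ltbp1, which stores latent TGF-beta, and Tgfbr2, its type II receptor (0.50). Smad1 and Tgfbr2 were the 2 with a positive value at that time, 5 were negative, and the median was -0.03. None was called among 11 from receptor tyrosine kinase, MAPK and small GTPase genes, led by Insr, Fgfr1 and Egfr, 6 from RNA-binding and splicing factors, Prrc2b and Ptbp3 among them, or 4 from cell cycle genes, led by Rad52, Cdk17 and Bub1b. The 20 from widely reported circular RNA hosts were led by Nfix, Med13l and Cdyl. Of these, 14 had a positive value at 1 week and 9 at 4 weeks, and only Med13l met a threshold. Over all 1717 circles, 891 had a positive value at 1 week and 969 at 4 weeks. The share called over all circles was 1.46% at 1 week and 0.641% on average. Exon 2 of Hipk3 measured 18.7, 20.4, 13.9, 12.2 and 14.7 in sham and 21.97, 22.01, 21.8 and 21.8 in TAC at 4 weeks, without overlap but at an adjusted p of 0.868.

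Among short circles of other cell types' genes, none met a threshold. The 7 from macrophage and other leukocyte genes (3 of Adgre1, and Mertk, Mrc1, Plcg2 and Lyn) had a median log2 fold change of 0.53 at 1 week with 6 positive, -0.80 at 4 weeks with 7 negative, and 0.12 at 8 weeks with 5 positive. Of all 1717 circles, 891 were positive at 1 week, 748 negative at 4 weeks and 883 positive at 8 weeks. The 28 circles of the macrophage and other leukocyte list summed to 106 to 196 in sham and 77.7 to 152 in TAC at 4 weeks. Those ranges overlapped. Endothelial genes gave 2 short circles, of Plxnd1 and Flt1, with average values of -0.36 and -0.69. Fibroblast markers gave Abca9 and Lamc1, with -0.29 and 0.04, and cardiomyocyte genes gave Camk2d, a calcium-dependent kinase, with 0.16.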

How the data were processed

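RNA of 24 cardiac fibroblast libraries was treated with DNase I, depleted of ribosomal RNA and sequenced as stranded total RNA in paired-end mode, per the labels' protocols. FastQC, Trimmomatic, STAR and mm10 are listed in the submitters' processing notes, with no version. The circular RNA filter and the normalization were not stated. The authors deposited normalized junction signal. After 0.01 was subtracted, 100% of the values came to whole reads, within 0.001 of a read, times a factor of the library. Table columns carry the sample descriptions.

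Junctions were annotated with GENCODE M21, of the same build, and exonic sequences searched against its transcripts with blastn 2.17.0. A minimum of 2 reads in 3 or more libraries excluded none of all 1717 circles. Because the values are not raw counts, log2(normalized reads + 0.5) of 24 libraries in 6 groups was fitted with limma 3.58.1 (trend option, R 4.3.3), without covariates. Benjamini-Hochberg adjustment ran over 1717 circles in each comparison, and a call is an adjusted p under 0.05. Tested on simulated data, the method missed many changed circles at this depth and called a few that had not been changed. Whether each library is a different animal is not said in the labels: the p-values reflect only how these libraries vary, perhaps technically. Floors cover counting error only.

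Circles were named by a rule: the 10 most abundant, every called one or, where fewer than 3 were called, the 3 with the smallest p, those at the ends of the span range, hosts with at least 4 members (none), up to 6 with no end at an exon boundary, and up to 3 per host gene list. Gm11407, Bub1b, the shared-end pairs, Hipk3 at 4 weeks and circles named only as examples of a count were added after values were seen. The values of 1 host among the shared-end pairs are not reported here. The members and lists were chosen with earlier results of these data known. Alternatives were other scalings, pseudocounts, filters, limma-voom, a replicate block, single times, left-out libraries and other definitions of the set.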

Additional observations from a re-analysis of the deposited data

Results flagged for a closer look

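Within groups of 4 or 5 libraries, 145 groups of values were checked for a library far from the others, and 14 had one; chance gives about 1 in 20. In sham at 1 week, replicate 1 was high for Adgre1 exons 11 to 12 (74.1 normalized reads, others 19.6 to 22.5), Bbs9 (45.2, others 21.04 to 24.9), Tns3 exons 14 to 16 (20.1, others 4.51 to 6.20) and the 57 bp junction of Malat1 (3.77, others 0). Replicate 3 was low for Tns3 exons 18 to 20 (0, others 3.74 to 4.14) and alone had the 45 bp Malat1 junction (3.01), and replicate 4 alone had the Lrp6 circle (1.03). In TAC at 1 week, replicate 3 alone had the 45 bp Malat1 junction (2.00), replicate 4 was high for Efnb2 (12.6, others 0 to 2.00) and replicate 1 had 0 for the 57 bp Malat1 junction (others 1.92 to 2.00). In sham at 4 weeks, replicate 1 was high for Lrp6 (8.41, others 1.02 to 3.14) and replicate 3 had the lowest share of junction reads from short circles (26.8%, others 31.5% to 33.1%). In sham at 8 weeks, replicate 2 was high for Rad52 (40.7, others 33.7 to 34.0) and replicate 4 alone had the Sparc junction (1.06). Several of these values are 1 to 3 reads.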

How the results depend on the processing

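Depth limits these results: the median short circle had 1.89 normalized reads per library, so a missing call does not show that a circle did not change. No called value changed sign under any setting tried. Of the named circles' values, 192 of 222 under other settings and 575 of 648 under left-out libraries stayed on the same side of the threshold. These totals pool the calls with values not called in the main fit. They also hold fits that could change little. The filter removed no circle, so the fit without it repeated the main one. For a value of 1 time, leaving out a library of another time keeps the fold change and can change only the p-value. A call was lost in 19 values under other settings and 59 under left-out libraries, and gained in 11 and 14. The count of short circles called at 1 week was 8, and 5 with a pseudocount of 0.1 and 2 with only the libraries of that time. At 4 weeks it was 0, and 2 with TMM scaling, a pseudocount of 1 and limma-voom, and 5 with only the libraries of that time. Averaged, it was 4, 1 with a pseudocount of 0.1, and 2, both lower in TAC, for the shortest 25% by spliced length. The share of junction reads, 29.5%, became 25.7% for that set and 26.4% without the most abundant circle. Over left-out libraries the counts ran from 1 to 8 at 1 week, 0 to 3 at 4 weeks, 0 to 0 at 8 weeks, 1 to 6 averaged and 0 to 1 for differences between times, and the share from 29.2% to 29.7%. The circles behind these counts could also change. At 1 week, 3 of the 6 called without sham replicate 3 were among the 8 of the main fit. With limma-voom 5 of 6 were, and with TMM scaling 7 of 7. Limma-voom moved the 4-week median of all circles from 0.12 to -0.03. At that time each TAC library held more junction reads than each sham library. Restricting to circles with both ends at exon boundaries, chosen after seeing the data, gave 6 calls at 1 week. A count-model test, planned for the case of raw counts, was not run, because the deposited values are not raw counts. Limma-voom was run on the whole reads recovered from them. Deviations of same-numbered libraries had correlations of -0.08 to 0.14, and of 0.02 to 0.14 at 1 week. At 4 and 8 weeks the sample descriptions number the sham libraries differently from the replicate numbers used. Neither this check nor the replicate block, which used the same numbers, can therefore show whether libraries were paired. With the replicate block the counts were 10 at 1 week, 1 at 4 weeks, 0 at 8 weeks, 3 averaged and 1 for differences between times. The cause of these changes was not tested.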
